A study of Mus musculus with 6 samples.

Results

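The 6 small structured RNAs described here were the RNA parts of RNase MRP (Rmrp, gene 19782) and RNase P (Rpph1, gene 85029), the RNase P-like Rprl3 (gene 19785), the minor spliceosomal U11 RNA (Rnu11, gene 353373), the brain cytoplasmic RNA Bc1 (gene 100568459) and the vault RNA Vaultrc5 (gene 378472). The members were taken by symbol and were 6 of the 24407 genes in the count table. They were selected on their measured counts, being much higher in LCS than in WT libraries, so their levels and fold changes between the genotypes are a description without a test. The series counted RNA in pancreatic islets of Langerhans (clusters of hormone-secreting cells) from C57BL/6 mice aged 70 weeks on regular chow. LCS mice carry an Lmna allele from which lamin C is the only A-type lamin made, and WT mice are their wild-type comparison. The sample titles name the LCS mice KIKI, read here as homozygous for a knock-in allele. The labels name no further allele and no treatment in either group. Each genotype had 3 libraries, and each library held the islets of 3 mice pooled, so a value is a mean over mice and says nothing about single animals. The lamin change is not restricted to islet cells by any driver that the labels name.

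RNase P is a ribozyme that removes the leader from precursor transfer RNAs, and RNase MRP is its relative that cuts precursor ribosomal RNA in the nucleolus. Their RNAs share a catalytic core and most of their protein subunits. Both RNAs are made by RNA polymerase III from promoters that lie upstream of the gene, whereas Bc1 and vault RNAs are made by the same polymerase from promoter elements inside the gene. Rnu11 differs from the rest in being an RNA polymerase II product, despite being counted here among polymerase III RNAs. U11 recognises the 5′ splice site of the rare introns that the minor spliceosome removes. Bc1 arose from a retroposed alanine transfer RNA, founded the ID family of rodent repeats and is best known as a translational repressor in neurons. Vault RNA is bound to the vault, a large cytoplasmic ribonucleoprotein shell. None of these RNAs ends in a poly(A) tail added by poly(A) polymerase as messenger RNAs do, and the labels give polyA RNA as the molecule that was sequenced.

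The RNAs of 5 members are shown because their sequences bear on how reads of each could be counted. They were read from GENCODE M21 transcripts, which use the GRCm38 build, while the counts rest on mm9. Each of the 5 genes is noncoding and each model is a single exon without a UTR. Capitals in Rmrp (chr4:43492788-43493058, minus strand) and Rpph1 (chr14:50807468-50807767, minus strand, the first 300 of its 319 bases) mark the match to GNAANNTC followed by any 3 bases and a G, a pattern that covers conserved region I of the catalytic core. Capitals in Rprl3 (chr8:3803069-3803358, minus strand) mark bases that differ from Rpph1, or face a gap in it, in a global alignment. Capitals in Rnu11 (chr4:132270080-132270213, minus strand) mark the match to ATTTTTTG, the site where the ring of Sm proteins binds. Capitals in Bc1 (chr7:144914470-144914637, plus strand) mark its longest run of A.
Rmrp: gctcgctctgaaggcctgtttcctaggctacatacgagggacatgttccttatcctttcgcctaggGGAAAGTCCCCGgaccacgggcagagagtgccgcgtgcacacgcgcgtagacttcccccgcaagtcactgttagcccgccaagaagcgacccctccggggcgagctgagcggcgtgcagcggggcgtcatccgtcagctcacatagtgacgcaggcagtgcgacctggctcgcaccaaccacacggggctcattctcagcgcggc
Rpph1: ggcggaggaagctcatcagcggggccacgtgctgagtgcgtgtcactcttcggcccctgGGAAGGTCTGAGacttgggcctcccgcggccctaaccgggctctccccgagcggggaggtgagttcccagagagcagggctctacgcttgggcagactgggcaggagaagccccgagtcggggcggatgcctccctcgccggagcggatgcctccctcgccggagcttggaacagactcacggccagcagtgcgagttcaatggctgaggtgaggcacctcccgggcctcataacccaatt
Rprl3: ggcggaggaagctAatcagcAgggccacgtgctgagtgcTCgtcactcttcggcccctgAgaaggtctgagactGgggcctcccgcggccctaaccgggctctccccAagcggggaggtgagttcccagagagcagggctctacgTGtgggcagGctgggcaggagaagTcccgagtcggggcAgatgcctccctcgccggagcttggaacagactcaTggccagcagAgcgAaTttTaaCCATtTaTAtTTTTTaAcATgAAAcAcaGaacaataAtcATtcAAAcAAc
Rnu11: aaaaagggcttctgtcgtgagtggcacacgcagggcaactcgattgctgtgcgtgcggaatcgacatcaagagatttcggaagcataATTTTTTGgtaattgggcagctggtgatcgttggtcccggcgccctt
Bc1: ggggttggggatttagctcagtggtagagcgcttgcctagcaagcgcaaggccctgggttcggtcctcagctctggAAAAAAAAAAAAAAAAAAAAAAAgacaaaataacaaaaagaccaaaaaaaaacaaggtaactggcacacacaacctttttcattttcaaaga

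Rpph1 and Rprl3 were near copies over most of their length. Their alignment held 245 identical bases, 44 mismatches and 31 gap columns, an identity of 84.8% where both had a base. The longest stretch they shared without a difference was 37 bases, and of the bases of Rprl3 that differed from Rpph1 or faced a gap, 7 lay among its first 145 bases and 38 among its last 145. Reads that lie wholly within a shared stretch cannot be assigned to either gene, and how the counting treated such reads was not given in the sources used here. The split between Rpph1 and Rprl3 may therefore be uncertain, and how many reads fell in such stretches was not tested. Rmrp and Rpph1 were 62.2% identical where both had a base and shared no exact stretch longer than 9 bases, so their counts are separate measurements. The conserved region I pattern was found on the sense strand once in each of Rmrp and Rpph1, and on either strand in 15.7% of 12328 GENCODE transcripts of 200 to 400 nt. The Sm pattern was found once in Rnu11, on its sense strand, and in 0.771% of 4796 GENCODE transcripts of 100 to 200 nt on either strand.

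Bc1 held a run of 23 A inside the RNA, ahead of its 3′ part. A run at least that long was present in 3 of the 4796 GENCODE transcripts of 100 to 200 nt (0.0626%). The longest run of A was 2 to 5 bases in the other 5 members. Only Bc1 was matched in RefSeq's promoter table (1 of 6 members, GRCm38.p6), in a window from 250 bases before to 50 bases after its start (chr7:144914220-144914519, plus strand). That window held 1 match to the consensus of the A box, an internal promoter element of transfer RNA-like genes. It was the stretch TAGCTCAGTGG at bases 14 to 24 of the RNA, on the sense strand. An A box match on either strand was present in 4.69% of all 32851 promoter windows.

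Values in 3 libraries are given throughout in the order of replicates 1 to 3. Rmrp was the most even of the members within LCS. Its raw counts were 15233, 24756 and 13920 in LCS and 1115, 227 and 377 in WT. In CPM, which are counts per 1000000 scaled between libraries by the TMM method, this was 532, 486 and 444 in LCS and 23.2, 5.60 and 9.85 in WT. Both groups were far apart, and the LCS libraries differed 1.20-fold from lowest to highest while the WT libraries differed 4.14-fold. The means were 487 ± 44.3 CPM in LCS and 12.9 ± 9.17 CPM in WT (SD, n = 3), a fold change of 37.7 (log2 5.24, SE 0.47). Without WT replicate 1 the log2 difference was 5.98.

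Rpph1 varied more between LCS libraries than Rmrp, 2.102-fold from lowest to highest. It reached 1373, 653 and 696 CPM in LCS and 35.8, 11.9 and 6.01 CPM in WT. The lowest LCS value was 18.3 times the highest WT value. LCS replicate 1 stood above the other LCS libraries, and WT replicate 1 above the other WT libraries. The log2 difference between the genotypes was 5.66 (SE 0.65), and without WT replicate 1 it was 6.66.

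Rprl3 had the widest spread within WT of the 6 members. Its values were 55.2, 21.1 and 12.7 CPM in LCS and 2.95, 0.567 and 0.235 CPM in WT. The genotypes did not overlap, yet the lowest LCS library was only 4.30 times the highest WT library. The spread within a genotype was wide, 4.35-fold in LCS and 12.6-fold in WT. The log2 difference was 4.52 (SE 0.80), and without WT replicate 1 it was 6.18 and without LCS replicate 1 it was 3.74. Per 100 Rpph1 counts in the same library, Rprl3 had 4.02, 3.23 and 1.82 counts in LCS and 8.25, 4.76 and 3.91 counts in WT, and these ranges overlapped. The other RNase P-like genes of the table were scarce: Rprl1 had 15, 2 and 1 counts in LCS and none in WT, and Rprl2 had 34, 17 and 4 counts in LCS and 1, 0 and 0 counts in WT.

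Rnu11 rested on few counts. Its raw counts were 278, 313 and 148 in LCS and 12, 19 and 6 in WT. Scaled, it stood at 9.71, 6.14 and 4.72 CPM in LCS and at 0.249, 0.469 and 0.157 CPM in WT. No WT library came near an LCS library, and the highest WT value belonged to replicate 2 rather than replicate 1. The log2 difference was 4.54 (SE 0.43).

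Bc1 had the largest difference of the members and rested on the fewest WT counts. It was counted 334, 557 and 749 times in LCS and 6, 6 and 2 times in WT. This gave 11.7, 10.9 and 23.9 CPM in LCS and 0.125, 0.148 and 0.0522 CPM in WT. The lowest LCS library was 73.9 times the highest WT library, and the log2 difference was 7.10 (SE 0.46). Bc1 was also the only member that was highest in LCS replicate 3. Its transfer RNA-like part resembles ID repeats across the genome, so reads of that part may have more than 1 origin.

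Vaultrc5 differed from Bc1 in the order of the libraries. It stood at 121, 66.77 and 20.98 CPM in LCS and at 6.69, 2.59 and 0.940 CPM in WT. LCS replicate 3 was the lowest of its group, 5.76-fold under LCS replicate 1, and 3.14 times the highest WT library. The log2 difference was 4.33 (SE 0.74), the smallest of the 6. It was 5.29 without WT replicate 1 and 3.69 without LCS replicate 1.

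**Figure D1:**
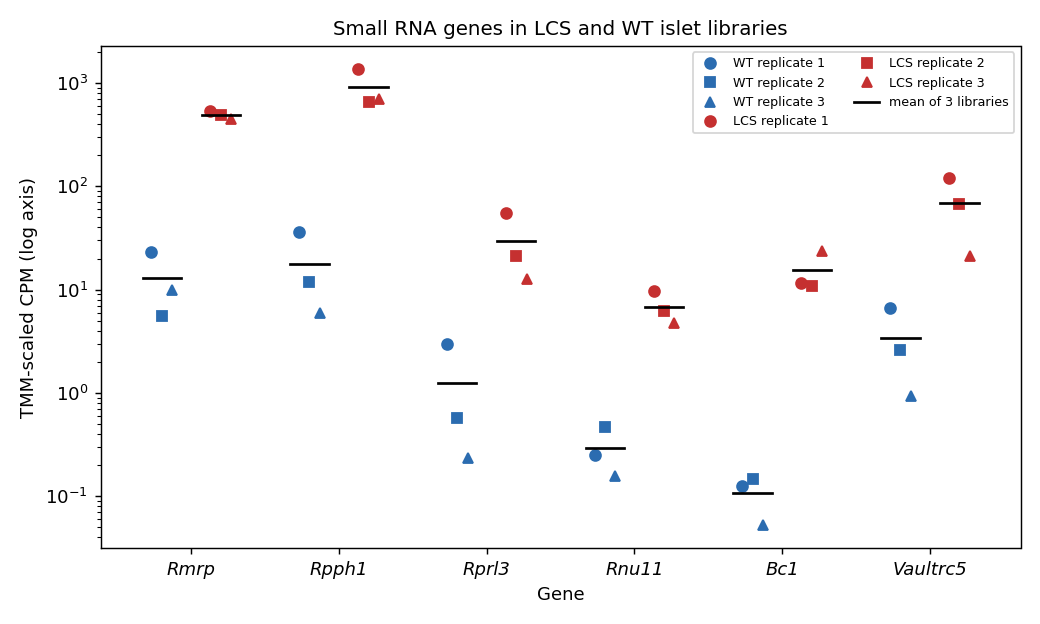
TMM-scaled CPM on a log axis for each of the 6 small RNA genes, with WT libraries in blue, LCS libraries in red, a symbol per replicate and the mean of 3 libraries as a black bar. All LCS points lie above all WT points of the same gene, and Bc1 alone has its highest point in LCS replicate 3 (23.9 CPM).

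All 6 members had LCS values above every WT value. The same held for 14.6% of all 14539 genes that passed the filter on low counts (26.6% had no overlap in either direction), and nothing is read from the members' count because the contrast chose them. All 6 passed that filter, and each could do so through the LCS libraries. Of all genes tested, 2.06% were called higher in LCS and 0.144% lower at an edgeR adjusted p under 0.05. Scaled by library totals alone, 94 genes were called higher and 11455 lower, and DESeq2 called 937 higher and 571 lower. P-values here compare 3 pools of mice with 3 others.

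Counted per length, the order was Rpph1, Rmrp, Vaultrc5, Rprl3, Bc1 and Rnu11 in LCS. How fully each RNA was recovered in the libraries was not measured, so the order does not rank amounts in cells. The mean levels were 2845, 1799, 486, 102, 92.2 and 51.2 CPM per kb of the GENCODE transcript in that order. In WT they were 56.1, 47.5, 23.8, 4.32, 0.645 and 2.18 CPM per kb, so Bc1 and Rnu11 changed places. In LCS the ranges of Rpph1, Rmrp and Vaultrc5 did not overlap, whereas from Vaultrc5 down each overlapped the next. In WT all neighbours overlapped other than Rnu11 and Bc1. The counts of Rpph1 and Rmrp crossed in WT, with 258, 134 and 157 Rpph1 counts per 100 Rmrp counts in LCS and 154, 213 and 61.0 in WT. That ratio overlapped between the genotypes, while the CPM of both RNAs did not.

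**Figure D2:**
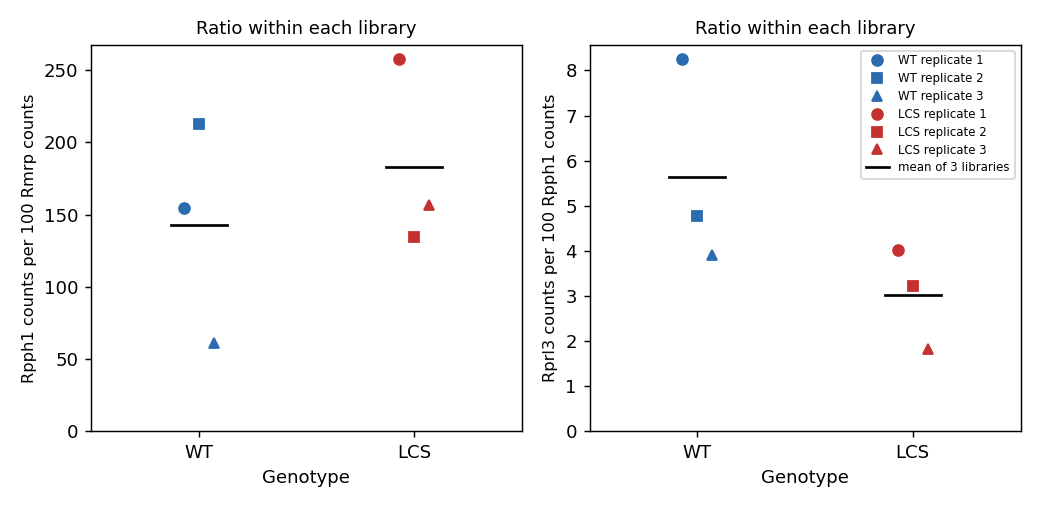
Ratios of raw counts within each library by genotype, with Rpph1 per 100 Rmrp on the left and Rprl3 per 100 Rpph1 on the right, a symbol per replicate and the mean of 3 libraries as a black bar. Ranges of the genotypes overlap in both panels, with 61.0 to 213 in WT and 134 to 258 in LCS on the left.

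Counts on rows treated here as ribosomal were also higher in LCS libraries. Rn45s, annotated as the precursor of ribosomal RNA, took most of these 3 rows, the others being Lars2 and Mir6236. Whether their reads came from precursor or from mature ribosomal RNA was not tested, so they are not read as a level of precursor. Together the 3 rows took 52.3% to 54.1% of all counts in LCS libraries and 7.64% to 18.5% in WT libraries (exact two-sided permutation p = 0.1, the smallest that 3 against 3 libraries allow). Total counts were 41529670 to 68036676 in LCS and 26123654 to 34483948 in WT, and outside these 3 rows they were 19057533 to 32462401 and 23511554 to 28094765. Within WT, replicate 1 had the highest share of these rows and the highest CPM of Rmrp, Rpph1, Rprl3 and Vaultrc5. Rnu11 and Bc1 were highest in WT replicate 2, which had the lowest share of these rows. The 6 members together took 3157, 1952 and 1651 per 1000000 counts outside these rows in LCS and 118, 34.5 and 28.1 in WT. In bulk samples such as these, more cells of a type and more RNA per cell cannot be told apart. Whether poly(A) selection was done alike in every library is not stated in the sources used here. Its part in these differences was not tested.

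Setting each member against Rn45s of its own library needs no scaling between libraries. Rmrp then had 770, 796 and 607 counts per 1000000 Rn45s counts in LCS and 203, 130 and 165 in WT. Rpph1 had 1985, 1070 and 952 in LCS and 314, 277 and 101 in WT. Bc1 had 16.9, 17.9 and 32.7 in LCS and 1.09, 3.44 and 0.874 in WT. These 3 RNAs remained apart between the genotypes on this scale, with ratios of the group means of 4.36, 5.80 and 12.5.

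The other 3 members overlapped on the Rn45s scale. Rprl3 had 17.4 to 79.8 counts per 1000000 Rn45s counts in LCS and 3.93 to 25.9 in WT. Rnu11 had 6.45 to 14.1 in LCS and 2.19 to 10.9 in WT. Vaultrc5 had 28.7 to 175 in LCS and 15.7 to 60.2 in WT. The ratios of the group means were 3.06, 1.95 and 2.32. Of the 14538 tested genes other than Rn45s, 0.0894% had every LCS library above every WT library on this scale. Every LCS library lay below every WT library in 98.9%, and Rn45s itself was 9.38-fold higher in LCS by CPM. Nothing is read from the members' count on this scale either, because the contrast chose them.

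**Figure D3:**
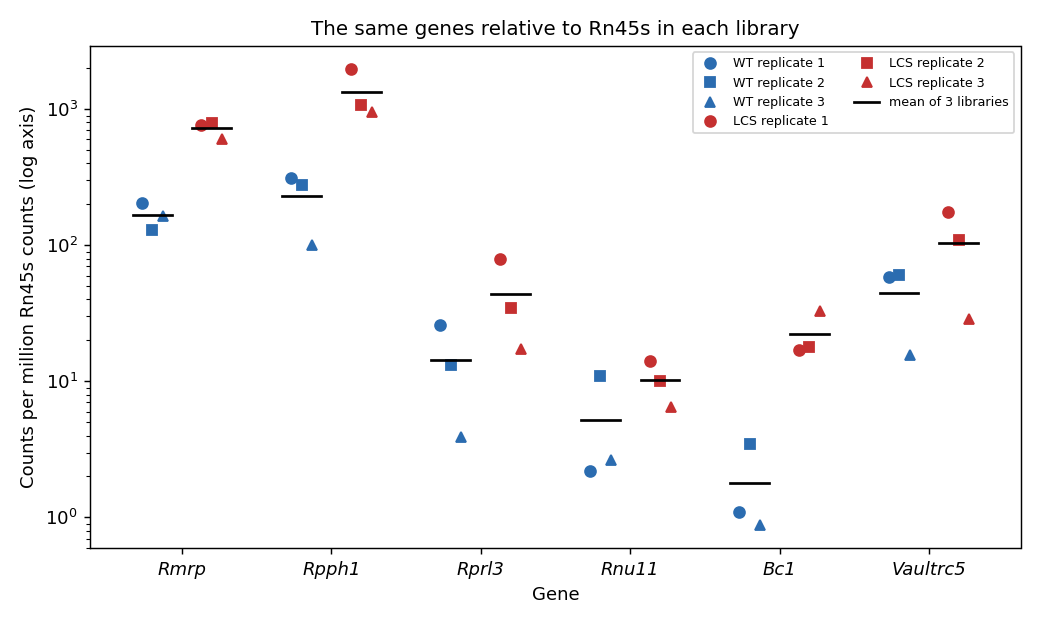
Raw counts of each gene per 1000000 Rn45s counts of the same library on a log axis. Colours give the genotype (blue WT, red LCS), with a symbol per replicate and the mean of 3 libraries as a black bar. Rmrp, Rpph1 and Bc1 keep the genotypes apart, while Rprl3, Rnu11 and Vaultrc5 overlap.

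Genes of the protein partners, which played no part in choosing the members, were tested in the fit of all genes. In 9 lists of such genes with 111 tested members, 5 were called higher and 1 lower (5.41%), where 2.21% of all tested genes were called. DESeq2 called 20 of the 111, where it called 11.2% of all genes it gave an adjusted p. An unadjusted edgeR p under 0.05, the level used for all unadjusted p, was reached by 37 of the 111 and by 24.1% of all tested genes (13.3% higher and 10.8% lower in LCS), against which the counts by list are to be read. The median log2 fold change of all genes tested was 0.01, and list medians lay between -0.33 and 0.24. Scaled by library totals alone, the median of all genes moved to -1.06, all genes called in the 9 lists were lower, and Polr2k, Snrpd2 and Snrpg were at -0.03, -0.15 and -0.33. On that scaling Pop5 was at 0.05 and Polr2l at 0.04 (edgeR adjusted p = 0.802 and 0.850).

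The protein subunits of RNase P and RNase MRP lay within 1.14 of 0 on the log2 scale. Of 12 tested genes 1 was called higher and 0 lower, at a median of 0.23 on the log2 scale and a range from -0.30 to 1.14. Pop5, a small subunit common to both enzymes, rose from 11.8, 8.24 and 8.10 CPM in WT to 19.1, 16.9 and 26.2 CPM in LCS (log2 fold change 1.14, SE 0.22, edgeR adjusted p = 0.0313). The subunit genes Rpp21 and Pop7 missed the threshold. Rpp21 stood at 1.12 (SE 0.25, edgeR adjusted p = 0.0540) and Pop7 at 0.63 (SE 0.21, edgeR adjusted p = 0.121). Pop1, the largest protein of the complex, stood at -0.03 (SE 0.28). The call of Pop5 ended without LCS replicate 1, LCS replicate 3, WT replicate 2 or WT replicate 3 (edgeR adjusted p = 0.110, 0.125, 0.139 and 0.0857). It also ended with an offset for transcript length (log2 0.85, edgeR adjusted p = 0.0774), and Rpp21 was called without LCS replicate 2 (0.0388) or WT replicate 1 (0.00906).

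Among 7 tested genes of mitochondrial RNase P and of transfer RNA end processing, edgeR and DESeq2 called none, and 1 had an unadjusted edgeR p under 0.05. This was Elac1, which codes for a transfer RNA 3′ endonuclease of the ELAC family, at -0.46 (SE 0.17). Hsd17b10, a subunit of the protein-only mitochondrial enzyme, stood at 0.40 (SE 0.19) and Trnt1, which adds the CCA end, at -0.29 (SE 0.18).

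Of 18 tested subunits of RNA polymerase III, 2 were called higher and 0 lower, with a median of 0.19. Both are shared with RNA polymerases I and II. Polr2k rose 2.07-fold, from 17.5, 25.1 and 23.0 CPM in WT to 43.9, 43.4 and 48.6 CPM in LCS (edgeR adjusted p = 0.0150). Polr2l rose 2.18-fold, from 17.9 ± 3.37 to 39.1 ± 7.84 CPM (SD, n = 3, edgeR adjusted p = 0.0220). The shared subunit gene Polr2f stood at 0.95 (SE 0.22, edgeR adjusted p = 0.0562). None of the 10 genes named Polr3, most of which code for subunits of this polymerase alone, was called by edgeR or DESeq2. Their log2 fold changes ran from -0.56 to 0.36, and 2 had an unadjusted edgeR p under 0.05. Without LCS replicate 1 or LCS replicate 3 neither Polr2k (edgeR adjusted p = 0.0653 and 0.0643) nor Polr2l (0.101 and 0.0916) was called, and Polr2l was also lost without WT replicate 2 (0.0753) or WT replicate 3 (0.0588). With the length offset the call of Polr2k ended (log2 0.75, edgeR adjusted p = 0.0822) and that of Polr2l held (1.09, edgeR adjusted p = 0.0435).

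Factors that place RNA polymerase III on its genes, with the repressor Maf1, had a median of -0.03 over 19 tested genes. EdgeR called none of them. By the unadjusted p 2 were higher and 2 were lower, and 1 was lower by DESeq2. Maf1 stood at 0.51 (SE 0.16), with 25.4, 26.3 and 28.5 CPM in LCS and 22.3, 17.8 and 16.3 CPM in WT. Pou2f1, the Oct-1 factor that binds the distal element of upstream promoters of this class, stood at -1.05 (SE 0.28). The TFIIIC subunit gene Gtf3c2 stood at -0.34 (SE 0.13). Their edgeR adjusted p were 0.114, 0.0771 and 0.169.

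In the minor spliceosome, edgeR called none of 9 tested protein genes (median 0.13), while 3 were higher and 1 was lower by the unadjusted p, and 2 were higher by DESeq2. Zcrb1 and Snrnp25, which code for proteins of the U11/U12 particle, had values of 0.92 (SE 0.22, edgeR adjusted p = 0.0599) and 0.89 (SE 0.22, edgeR adjusted p = 0.0616). Zmat5, another protein of that particle, stood at 0.56 (SE 0.19). Of 14 tested genes of the Sm ring and of Integrator, which trims the 3′ ends of polymerase II small nuclear RNAs, 2 were called higher and 0 lower (median 0.24). These were the Sm genes Snrpd2, at 59.7 ± 15.0 CPM in LCS and 31.0 ± 1.64 in WT, and Snrpg, at 36.8 ± 5.25 and 21.7 ± 1.92 CPM (SD, n = 3, edgeR adjusted p = 0.0377 and 0.0419). The Sm gene Snrpb stood at 0.71 (SE 0.21, edgeR adjusted p = 0.102). Both calls ended with the length offset (edgeR adjusted p = 0.0767 and 0.138) and without LCS replicate 1 (0.142 and 0.135), LCS replicate 3 (0.132 and 0.145), WT replicate 2 (0.121 and 0.182) or WT replicate 3 (0.0961 and 0.0857).

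Rnu12, the U12 small nuclear RNA of the same spliceosome, was called higher. It reached 13.2, 8.58 and 3.67 CPM in LCS and 0.914, 0.888 and 0.287 CPM in WT, a fold change of 12.0 (log2 3.58, SE 0.52, edgeR adjusted p = 0.0117). Rnu12 belonged to a list of 30 other small nuclear, telomerase and polymerase III RNAs, of which 5 were in the table and 2 were tested. The other tested one, Rnu73b, had 0, 0.432 and 0 CPM in LCS and 0.229, 0.271 and 0.287 in WT. Telomerase RNA (Terc) had 0.0319 to 0.384 CPM in LCS and 0.0247 to 0.157 CPM in WT, and the ranges overlapped.

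The genes of the vault's proteins had small differences. The major vault protein gene Mvp had 66.7, 60.0 and 86.9 CPM in LCS and 68.4, 57.0 and 51.1 CPM in WT, a log2 fold change of 0.28 (SE 0.18). Tep1 and Parp4, the other vault proteins, stood at -0.38 (SE 0.16) and -0.33 (SE 0.18). None of the 3 was called by edgeR (adjusted p = 0.368, 0.186 and 0.291) or DESeq2, and 1 was lower at an unadjusted edgeR p under 0.05.

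Genes of proteins listed here as partners of Bc1 had a median of -0.27. EdgeR called none of 8, while 4 were lower by the unadjusted p and 3 by DESeq2. Fmr1, the fragile X protein gene, had 24.01, 24.99 and 15.53 CPM in LCS and 29.6, 39.2 and 50.1 CPM in WT (log2 -0.88, SE 0.24, edgeR adjusted p = 0.0787). Purb stood at -1.01 (SE 0.27, edgeR adjusted p = 0.0824) and Syncrip at -0.62 (SE 0.19, edgeR adjusted p = 0.110). In this list WT lay above LCS without overlap for 3 of 8 genes, which are the 3 just named, and LCS above WT for 1 of 8 (Eif4a1, named after its value was seen), where 12% and 14.6% of all tested genes did so.

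Of 21 tested genes of the RNA exosome and of 3′ end decay of small RNAs, 1 was called lower and 0 higher, with a median of 0.18. Papd5, a noncanonical poly(A) polymerase that tags small RNAs for trimming, fell from 15.7, 17.1 and 20.1 CPM in WT to 10.9, 10.3 and 10.3 CPM in LCS (log2 -0.75, SE 0.16, edgeR adjusted p = 0.0433). The exosome subunit gene Exosc5 stood at 0.81 (SE 0.23, edgeR adjusted p = 0.0913) and the exosome nuclease gene Dis3 at -0.65 (SE 0.21, edgeR adjusted p = 0.117). The call of Papd5 ended with the length offset (log2 -0.53, edgeR adjusted p = 0.109), and without each library other than WT replicate 1 (edgeR adjusted p = 0.150, 0.0692 and 0.164 without LCS replicates 1 to 3, and 0.182 and 0.157 without WT replicates 2 and 3).

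**Figure D4:**
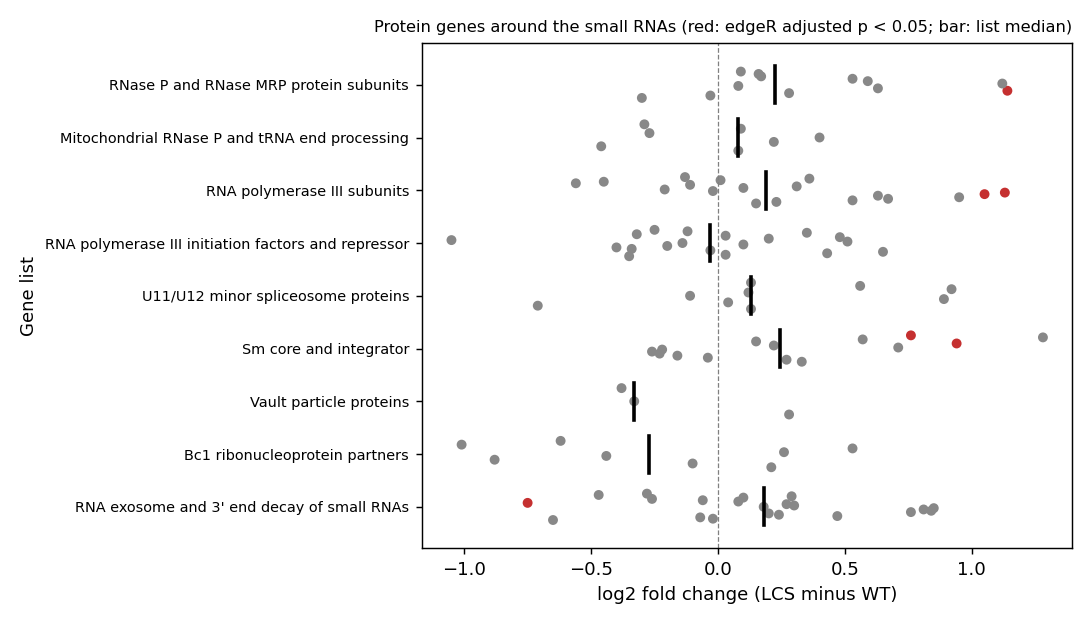
Points give the log2 fold change, LCS minus WT, for 111 protein genes around the small RNAs, sorted into 9 lists. Red marks an edgeR adjusted p below 0.05 and a black bar the median of a list. List medians lie between -0.33 and 0.24, and 6 of 111 points are red.

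Genes next to the members were also read from the fit of all genes, with the nearest protein-coding gene on either side taken from the gene order of RefSeq on GRCm38.p6. Of 12 neighbours 8 could be tested. EdgeR called none and DESeq2 called Ccdc107 alone. An unadjusted p under 0.05 was reached by 2 of the 8, a share near the 24.1% of all tested genes. Parp2, which lies head to head with Rpph1, had 13.3, 15.0 and 14.4 CPM in LCS and 15.4, 18.4 and 18.2 CPM in WT (log2 -0.29, SE 0.15, edgeR adjusted p = 0.278). Ccdc107, next to Rmrp, had 5.84, 7.11 and 8.54 CPM in LCS and 5.05, 2.47 and 2.69 CPM in WT (log2 1.07, SE 0.30, edgeR adjusted p = 0.0872), and was called without WT replicate 1 (1.48, edgeR adjusted p = 0.00307). GENCODE M21 has Ccdc107 overlapping Rmrp by 159 bases on the opposite strand and Ccnb1ip1 overlapping Rpph1 by 284 bases on the same strand. Ccnb1ip1 stood at 0.629, 0.137 and 0.0319 CPM in LCS and 0.540, 0.617 and 0.444 CPM in WT.

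The other tested neighbours lay beside Bc1, Rnu11 and Vaultrc5. Oraov1, beside Bc1, stood at -0.04 (SE 0.17), Taf12 and Gmeb1, around Rnu11, at 0.21 (SE 0.18) and -0.16 (SE 0.21), and Zmat2, beside Vaultrc5, at 0.13 (SE 0.16). Pcdha1, on the other side of Vaultrc5, stood at -0.98 (SE 0.33), with 0.510 to 0.687 CPM in LCS and 1.10 to 1.23 CPM in WT. Their edgeR adjusted p were 0.899, 0.503, 0.656, 0.646 and 0.124. Sit1, Cd209a, Cd209e and Fgf15 were too scarce to be tested, with 0 to 3 counts in each library.

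The genes most like the members in pattern were found by the Pearson correlation of their log2 CPM over the 6 libraries with the mean profile of the members, among 9963 genes that were no members and had a mean of at least 5 CPM in either genotype. The 8 highest were Snora7a (r = 0.997), Mff (0.995), Snord17 (0.993), Dctpp1 (0.993), Tstd3 (0.988), Gtf2f2 (0.988), Mettl25 (0.987) and Dut (0.987). Snora7a and Snord17 are small nucleolar RNAs and the rest code for proteins. The size of the difference varied widely among these 8, from 30.2-fold for Snord17 (57.26 ± 19.96 CPM in LCS and 1.88 ± 0.516 in WT) to 1.29-fold for Mettl25 (5.33 ± 0.195 and 4.13 ± 0.296 CPM, SD, n = 3). All libraries were pools, but they differ in genotype and depth, and the mean profile of the members mainly separates the genotypes. A correlation over these 6 libraries is therefore given as a description.

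The label of the tissue was borne out by its markers: all 16 islet endocrine markers were tested, and their summed level was 203200 to 300800 CPM in LCS and 171400 to 196300 CPM in WT. Among markers of other cells, 16 of 18 tested acinar genes were called higher in LCS. Their summed level, led by Ctrb1 and Prss2, was 592 to 1012 CPM in LCS and 198 to 300 CPM in WT (p = 0.1 in an exact permutation test, two-sided, with no lower value reachable), and Amy2a5 was at 0 in all libraries. The part of acinar cells in the members' difference was not tested. In the other lists Ppy, the pancreatic polypeptide gene of the endocrine list, was called at 3.63-fold (2478 ± 874 CPM in LCS and 683 ± 226 in WT, SD, n = 3, edgeR adjusted p = 0.0172). Lyz2, a lysozyme gene of the macrophage list, was called at 2.79-fold (14.2 ± 3.62 and 5.07 ± 0.782 CPM, SD, n = 3, edgeR adjusted p = 0.0142). Each was the only edgeR call of its list, among 16 and 8 tested markers with median log2 fold changes of 0.26 and 0.20. The other macrophage markers went both ways. C1qa, C1qb and C1qc stood at 0.78, 0.44 and 0.64, and Adgre1, Itgam, Csf1r and Cd68 at -0.62, -0.37, -0.16 and -0.03. Neuron markers, of interest because Bc1 is a neuronal RNA, were summed at 324 to 458 CPM in LCS and 495 to 821 CPM in WT. Most of that sum was Map2, at 214 ± 58.8 CPM in LCS and 405 ± 129 in WT, and Snhg11, at 58.3 ± 24.2 and 122 ± 36.1 CPM (SD, n = 3), while the median log2 fold change of the list was 0.15. Of 13 tested neuron markers edgeR called none, while by the unadjusted p 1 was higher and 3 were lower, and by DESeq2 3 were lower. Schwann cell markers, of which edgeR, DESeq2 and an unadjusted p under 0.05 called none of 8, were summed at 51.8 to 60.0 CPM in LCS and 62.3 to 65.5 CPM in WT. Summed levels were 598 to 703 CPM in LCS and 371 to 694 CPM in WT for duct markers, 196 to 225 and 163 to 195 for endothelial markers, 79.1 to 94.9 and 52.5 to 65.3 for macrophage markers, and 32.2 to 57.2 and 22.5 to 94.6 for fibroblast and stellate markers.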

How the data were processed

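The 3 LCS and 3 WT islet libraries were grouped by their labels and numbered within a group in accession order. The deposited values were raw counts, whole numbers that the authors did not normalise. Per the submitters' processing notes, TopHat2 2.1.1, HTSeq 0.9.0, Bowtie2 2.2.9 and the mm9 build were used. For the annotation, the strand setting and the treatment of reads with several matches, the steps were not given in the sources used here. A TruSeq Stranded kit prepared the libraries, per the labels' protocols. No row stood for reads outside genes.

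Counts were filtered with filterByExpr (14539 genes kept), scaled by TMM and fitted with genotype as the only term by the edgeR 4.0.16 quasi-likelihood test in R 4.3.3, with Benjamini-Hochberg adjustment over all genes kept and calls at an adjusted p under 0.05. Standard errors are the log2 fold change divided by the square root of F. Alternatives were DESeq2 size factors, DESeq2 1.42.0, library totals, other filters, no ribosomal rows, leaving out libraries, and a loess offset (span 0.5) for the log of GENCODE transcript length, fitted to protein-coding genes. On simulated counts of 14539 genes for LCS against WT, 12%, 58% and 92% of genes changed 1.5-fold, 2-fold and 4-fold were called, so differences near 1.5-fold were mostly not detectable. Alignments were global (Biopython 1.88), and figures used matplotlib 3.10.9. Symbols absent from the table were looked up by gene number in RefSeq's GRCm38.p6 gene table, which 24320 of the 24407 genes matched.

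The members and lists were chosen with earlier results of these data known. Named genes were the members, their protein-coding neighbours, of each list the called genes (at most 6) filled up to 3 by those with the smallest p, the 8 genes most like the members in pattern, the ribosomal rows, and of marker lists the genes at 0 and the most abundant. Others were named after their values were seen, among them Pop1, Terc, Rprl1, Rprl2, Ppy and Lyz2.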

Additional observations from a re-analysis of the deposited data

How the results depend on the processing

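No paired analysis was possible because the labels give no replicate numbers that the genotypes share. The log2 fold changes of the members kept their sign in every alternative run. With library totals alone, which lowered the median of all genes to -1.06, they were 4.19 for Rmrp, 4.61 for Rpph1, 3.49 for Rprl3, 3.48 for Rnu11, 6.01 for Bc1 and 3.31 for Vaultrc5. Without WT replicates 1 and 2 together they were 5.63 for Rmrp, 7.24 for Rpph1, 6.96 for Rprl3, 5.42 for Rnu11, 8.12 for Bc1 and 6.20 for Vaultrc5. Leaving out each library in turn gave 4.88 to 5.98 for Rmrp, 5.25 to 6.66 for Rpph1, 3.74 to 6.18 for Rprl3, 4.23 to 5.03 for Rnu11, 6.65 to 7.35 for Bc1 and 3.69 to 5.29 for Vaultrc5. With those WT libraries left out, the lone WT library was assumed to vary like the LCS libraries. The cause of these shifts was not tested.

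Counts of called genes moved more. Over all genes, 321 in the main test became 11549 with library totals, 1508 with DESeq2, 686 without a filter, 1215 without WT replicates 1 and 2, 71 with the length offset and 82 to 2999 when each library was left out, the highest without WT replicate 1. With library totals the lists had 8 called RNase P and MRP protein genes, 7 of mitochondrial RNase P and tRNA end processing, 14 polymerase III subunits, 18 initiation factors, 7 minor spliceosome proteins, 10 Sm and Integrator genes, 3 vault proteins, 7 Bc1 partners, 17 decay genes and 7 neighbours, every one of them lower. With DESeq2 the counts were 2 RNase P and MRP protein genes, 6 polymerase III subunits, 1 initiation factor, 2 minor spliceosome proteins, 3 Bc1 partners, 3 decay genes and 1 neighbour. Without a filter they were 2 RNase P and MRP protein genes, 1 initiation factor, 2 minor spliceosome proteins, 2 Bc1 partners and 2 other small RNAs. Without WT replicates 1 and 2 they were 2 RNase P and MRP protein genes, 1 initiation factor, 3 minor spliceosome proteins, 2 Bc1 partners, 4 decay genes and 1 neighbour. With the length offset they were 0 RNase P and MRP protein genes, 1 polymerase III subunit, 0 Sm and Integrator genes and 0 decay genes. Leaving out each library gave 0 to 3 RNase P and MRP protein genes, 0 to 1 of mitochondrial RNase P, 0 to 9 polymerase III subunits, 0 to 4 initiation factors, 0 to 3 minor spliceosome proteins, 0 to 5 Sm and Integrator genes, 0 to 4 Bc1 partners, 0 to 6 decay genes, 1 to 2 other small RNAs and 0 to 1 neighbours, with each highest count reached without WT replicate 1.

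With library totals the log2 fold changes turned to -0.45 for Pop7, -0.69 for Hsd17b10, -0.03 for Polr2k, -0.13 for Polr2f, -0.56 for Maf1, -0.16 for Zcrb1, -0.18 for Snrnp25, -0.52 for Zmat5, -0.15 for Snrpd2, -0.33 for Snrpg, -0.37 for Snrpb, -0.81 for Mvp, -0.28 for Exosc5, -0.87 for Taf12 and -0.95 for Zmat2. Oraov1, at -0.17 to 0.04 over the fits that left out 1 library, was at 0.04, 0.02 and 0.04 without LCS replicate 1, WT replicate 2 and WT replicate 3, and Zmat2 turned to -0.12 without WT replicates 1 and 2. Testing protein-coding genes alone with no offset, chosen after seeing the data, moved none of these counts past 1.5 times.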

Other observations

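On the scale of counts per 1000000 Rn45s counts, 13 genes had every LCS library above every WT library. Besides Rmrp, Rpph1 and Bc1 these were the histone genes Hist1h2ak, Hist1h3f, Hist2h2ac and Hist2h2bb, the Cajal body RNAs Scarna2, Scarna6 and Scarna10, the small nucleolar RNAs Snora7a and Snord17, and the ribosomal row Mir6236, all named after their values were seen. The gap was narrow for some of them. The lowest LCS library and the highest WT library were at 10.4 and 9.74 for Scarna6 and at 7.80 and 7.45 for Snora7a, against 62.3 and 44.1 for Snord17 and 607 and 203 for Rmrp.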
